A study of Bos taurus with 10 samples.

Results

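The genes described here are *FLRT3*, its paralogs *FLRT1* and *FLRT2*, and the genes of 2 receptor families that bind FLRT proteins, the UNC5 receptors *UNC5B*, *UNC5C* and *UNC5D* and the latrophilins *ADGRL1*, *ADGRL2* and *ADGRL3*. They are 9 of the 20112 genes in the table of single bovine early blastocysts, and all 9 were found by symbol. *FLRT3* was chosen by its normalized read count, which fell further than that of any other gene tested between wildtype (WT) and *SOX2* KO embryos, so its difference is given as a description without a test. The other 8 genes were chosen for their kinship or binding to *FLRT3* and not for their values, although earlier results of these embryos were known. The 5 WT embryos were injected at the zygote stage with mRNA of the cytosine base editor BE3 alone, and the 5 *SOX2* KO embryos with the same mRNA and a mixture of sgRNAs that write premature stop codons into *SOX2*. All embryos were produced in vitro from oocytes of abattoir ovaries, and each was sequenced whole with Smart-seq2 on day 7.0 after fertilization by the labels, which the methods of the study give as a later time of the same day. In whole embryos, fewer cells of a type and less RNA per cell cannot be told apart.

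FLRT proteins are single-pass membrane proteins with an extracellular array of leucine-rich repeats. On the surface of one cell they bind latrophilins, which are adhesion G protein-coupled receptors, or UNC5 proteins, which are also receptors for netrins, on the surface of another. Binding to latrophilins holds cells together, and binding to UNC5 receptors pushes cells apart. Latrophilins also bind teneurins and neurexins. In the mouse embryo, FLRT3 is required for headfold fusion and ventral closure.

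The embryos had 2223670 to 5134855 (WT) and 2578284 to 4337342 (*SOX2* KO) reads on genes. The 18S ribosomal RNA gene *RN18S1* made up 26.4% to 37.0% of all WT reads and 32.5% to 45% of those of *SOX2* KO embryos. The transcript of *SOX2*, whose base edits do not remove it from the counts, lay between 56.5 and 93.4 in WT and between 26.4 and 82.1 in *SOX2* KO embryos, and the groups overlapped. The embryos are called nc1 to nc5 (WT) and ko1 to ko5 (*SOX2* KO) after the columns of the table, and levels are listed in that order. The unit is the normalized read count, the reads of a gene divided by the size factor of the embryo, in which 1 read is worth 0.590 to 1.48 depending on the embryo. 3 reads or fewer were taken as the floor of detection. The *SOX2* KO embryos ko1 and ko5 stood apart in genes with few reads. Over the 8778 genes with a mean below 10, the mean log2(normalized read count + 1) was 2.81 in ko1 and 2.5 in ko5, against 1.44 to 2.04 in the other *SOX2* KO embryos and 1.02 to 1.59 in WT.

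*FLRT3* was abundant enough in WT embryos to be read with confidence and was close to the floor in *SOX2* KO embryos. The 5 WT embryos had normalized read counts of 50.4, 162, 46.7, 76.9 and 112, from 66, 109, 47, 99 and 189 reads. The 5 *SOX2* KO embryos had 0, 5.28, 1.16, 0.821 and 11.5, from 0, 4, 1, 1 and 10 reads. Every WT embryo was above every *SOX2* KO embryo, which held for 2.76% of all genes tested and was part of the choice, and only ko2 and ko5 held more than 3 reads. In ko1, with 0 reads, 3 reads would have given 3.34.

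The mean of *FLRT3* was 89.4 ± 48.0 (SD, n = 5) in WT and 3.76 ± 4.80 in *SOX2* KO embryos, so the *SOX2* KO mean was 4.20% of that in WT, 23.8-fold lower. On the log2(normalized read count + 1) scale the difference was -4.69 with a standard error of 0.56. The rule behind this choice took genes called lower whose higher group had a mean of 50 or more and whose groups did not overlap. It left 105 genes, and the next largest fall among them was that of *LOC616039*, from 317 ± 295 to 15.9 ± 8.28, with a difference of -4.02. With a pseudocount of 5 in place of 1 this order turned, with -3.68 for *LOC616039* and -3.44 for *FLRT3*. Without ko1 and ko5, the difference of *FLRT3* was -4.80.

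**Figure D1:**
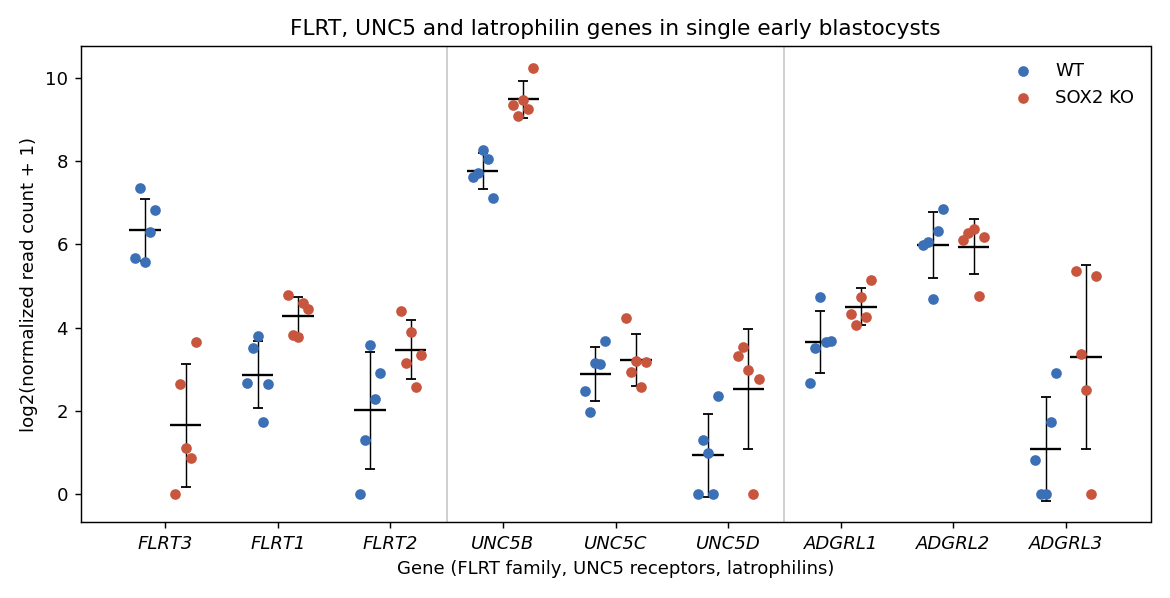
Level of the 9 genes in each embryo, with the gene on the horizontal axis and log2(normalized read count + 1) on the vertical axis. Each point is 1 embryo (blue WT, red SOX2 KO, n = 5 each), and bars give the mean and SD. For FLRT3 all blue points lie above all red points, for UNC5B all red points lie above all blue points, and for the other 7 genes the groups overlap.

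Both paralogs of *FLRT3* had differences of the opposite sign, and 1 of them passed the test. *FLRT1*, which binds the same receptor families, had 5.34, 10.4, 12.9, 2.33 and 5.31 in WT embryos and 26.7, 13.2, 12.8, 23.0 and 20.8 in *SOX2* KO embryos. The lowest *SOX2* KO embryo, ko3, lay just under the highest WT embryo, nc3, and the other 4 lay above all WT embryos. The mean was 7.26 ± 4.29 in WT against 19.3 ± 6.13 in *SOX2* KO. The gene rose 2.66-fold, with a log2 difference of 1.41 ± 0.45 (standard error) and a limma adjusted p of 0.0424 over all 20056 genes tested. A gene was called at a limma adjusted p of at most 0.05 where the level at least doubled or at most halved, a fold change of 2 or 0.5. The call of *FLRT1* rested on 39 reads in WT and 91 in *SOX2* KO embryos in all, and it was made in 3 of the 10 fits that leave out 1 embryo, those without nc2, nc3 or ko2. Without ko1 and ko5 the log2 difference was 1.19, with a limma adjusted p of 0.269.

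*FLRT2*, the third paralog, had 0, 1.48, 10.9, 3.89 and 6.49 in WT embryos and 20.04, 7.92, 13.95, 4.93 and 9.22 in *SOX2* KO embryos. The groups overlapped, with nc3 above 3 of the *SOX2* KO embryos. The log2 difference was 1.46 (95% confidence interval 0.17 to 2.75), and the limma adjusted p of 0.111 missed the threshold. Without nc3 it passed, with a log2 difference of 1.85 and a limma adjusted p of 0.0490.

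*FLRT3* gave 66.2% to 93.2% of the reads of the 3 FLRT genes in WT embryos and 0% to 27.8% in *SOX2* KO embryos. For ko1, 0 of 42 reads leave a 95% Wilson interval of 0% to 8.38%, which covers counting error only. *FLRT1* and *FLRT2* together had 11.8 ± 7.39 in WT and 30.5 ± 9.66 in *SOX2* KO embryos, and the sum of all 3 genes was 101 ± 47.6 in WT against 34.3 ± 9.24 in *SOX2* KO. The lower share of *FLRT3* follows in part from its choice, and the shares are not corrected for gene length.

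In the RefSeq gene table of a later assembly than the one behind these counts, *FLRT3* lies within *MACROD2* and *FLRT1* within *MACROD1*, both genes of ADP-ribose hydrolases. The sources used here do not say whether reads were counted by strand. *MACROD2* had 0.763 to 4.72 in WT embryos against 0.821 to 10.4 in *SOX2* KO embryos, with 16 and 23 reads in all, fewer than the 510 reads of *FLRT3* in WT. *MACROD1* had 16.9 to 50.5 in WT embryos against 32.9 to 58.1 in *SOX2* KO embryos, with a log2 difference of 0.55 (limma adjusted p = 0.187). Reads could be shared between *MACROD1* and *FLRT1*, and their part in the rise of *FLRT1* was not tested.

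Among the UNC5 receptors, *UNC5B* rose. *UNC5B*, the UNC5 receptor best known from blood vessel guidance and from apoptosis in the absence of netrin, had 196, 209, 308, 262 and 138 in WT embryos and 652, 541, 700, 607 and 1208 in *SOX2* KO embryos. The lowest *SOX2* KO embryo was above the highest WT embryo, and ko5 was the highest of all. The mean was 223 ± 65.0 in WT and 742 ± 267 in *SOX2* KO embryos, a 3.33-fold rise. The log2 difference was 1.72 (95% confidence interval 1.27 to 2.18), with a limma adjusted p of 7.02e-05. With 1279 reads in WT and 3385 in *SOX2* KO embryos, it was the best sampled of the 9 genes. It was called in all 10 fits that leave out 1 embryo, at 1.53 to 1.85, and in all 12 other settings tried, at 1.17 to 1.86. Without ko1 and ko5 the log2 difference was 1.51, with a limma adjusted p of 0.00382.

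The other UNC5 receptors had few reads. *UNC5C*, a netrin receptor of migrating neurons, had 4.58, 2.97, 7.95, 7.77 and 11.8 in WT and 17.8, 6.6, 8.14, 4.93 and 8.07 in *SOX2* KO embryos. Apart from ko1, the *SOX2* KO embryos lay within the WT range. The log2 difference of 0.33 had a 95% confidence interval of -0.68 to 1.34 and a limma adjusted p of 0.666.

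*UNC5D*, the receptor whose pairing with FLRT2 repels migrating cortical neurons, had 0, 1.48, 0.994, 0 and 4.13 in WT embryos and 8.91, 10.6, 6.98, 0 and 5.77 in *SOX2* KO embryos. The embryo ko4 held no read, and the other 4 *SOX2* KO embryos lay above all WT embryos. The log2 difference was 1.59 (95% confidence interval 0.17 to 3.0; limma adjusted p = 0.115), and without ko4 it was 2.22 with a limma adjusted p of 0.0133. *UNC5A*, the fourth receptor of the family, had 0.590 to 11.9 in WT embryos against 0.821 to 21.2 in *SOX2* KO embryos (log2 difference 0.94, limma adjusted p = 0.333).

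*UNC5B* gave nearly all reads of the 4 UNC5 genes in both groups, 89.3% to 96.3% in WT embryos against 93.2% to 99.1% in *SOX2* KO embryos. The other 3 genes together had 13.7 ± 5.19 in WT and 27.6 ± 15.0 in *SOX2* KO embryos.

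**Figure D2:**
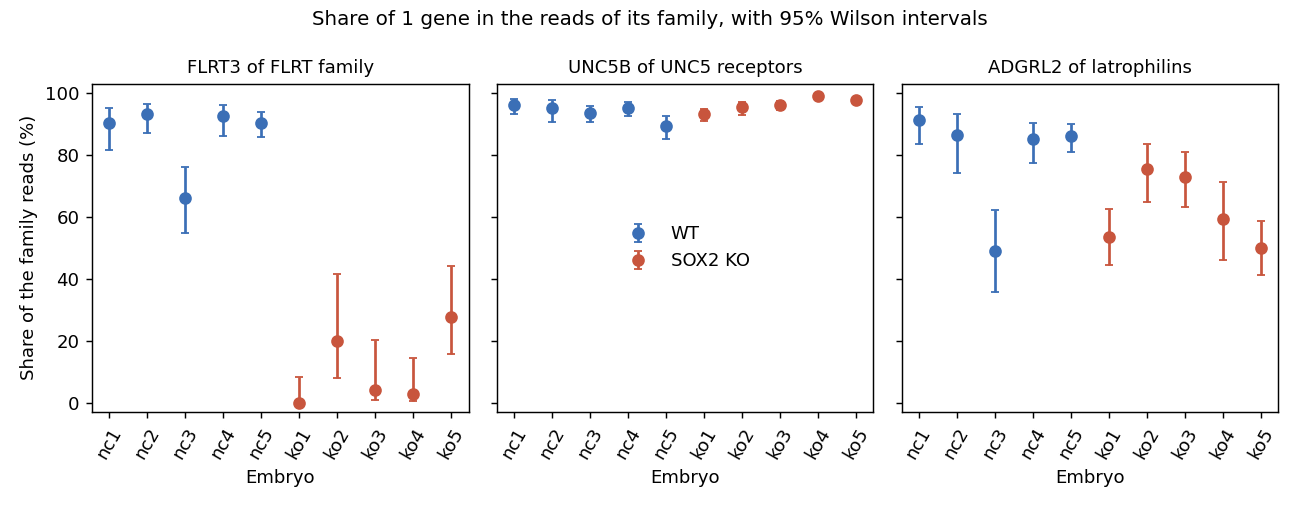
Share of the reads of each family that belong to FLRT3 (left, 3 FLRT genes), UNC5B (middle, 4 UNC5 genes) and ADGRL2 (right, 3 latrophilin genes) in each embryo, in percent. Points are embryos and bars are 95% Wilson intervals for counting error. The FLRT3 share is 66.2% to 93.2% in WT against 0% to 27.8% in SOX2 KO, the UNC5B share is above 89% in all 10 embryos, and the ADGRL2 shares of the groups overlap.

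No latrophilin passed the test. *ADGRL2*, which had most of the latrophilin reads, had 62.6, 65.3, 24.9, 79.3 and 114 in WT and 67.9, 76.6, 81.4, 26.3 and 71.5 in *SOX2* KO embryos. One embryo of each group, nc3 and ko4, stood low, and the rest of the *SOX2* KO embryos lay within the WT range. The means were 69.2 ± 32.1 and 64.7 ± 22.1, and the log2 difference of -0.04 had a 95% confidence interval of -0.76 to 0.67 (limma adjusted p = 0.949), so a change of up to that size in either direction could not be seen with these embryos. The sign of this difference was positive after rescaling by the median log ratio and after quantile normalization.

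*ADGRL1*, the latrophilin first known as a receptor of black widow spider venom, had 5.34, 10.4, 25.9, 11.7 and 11.8 in WT embryos and 18.9, 15.8, 25.6, 18.1 and 34.6 in *SOX2* KO embryos. Leaving nc3 aside, the WT embryos lay below all *SOX2* KO embryos, and nc3 lay above 4 of them. The log2 difference was 0.85 (95% confidence interval 0.02 to 1.69; limma adjusted p = 0.145).

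*ADGRL3*, the latrophilin whose complex with FLRT3 is best described, had 0.763, 0, 0, 2.33 and 6.49 in WT embryos and 40.1, 9.24, 4.65, 0 and 36.9 in *SOX2* KO embryos. High values were found in ko1 and ko5, the embryos with the highest level over all genes with few reads, while ko4 held no read. The log2 difference was 2.20 (95% confidence interval 0.44 to 3.96; limma adjusted p = 0.0826). It was called without ko4, at 3.02 with a limma adjusted p of 0.00764, and it was 0.86 with a limma adjusted p of 0.602 without ko1 and ko5. *ADGRL2* gave 49.0% to 91.1% of the latrophilin reads in WT embryos against 50% to 75.3% in *SOX2* KO embryos.

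Of the 8 genes other than *FLRT3*, 2 were called higher by limma, beside 8.93% of all genes tested, and 0 were called lower, beside 1.16%. At an unadjusted p below 0.05, 6 of the 8 were higher, beside 24% of all genes and 33.7% of genes with a mean under 20, and 0 were lower, beside 8.37%. On the recovered reads DESeq2 called 2 of them higher, beside 9.13% of its genes, and 0 lower, beside 1.18%. edgeR also called 2 higher, *FLRT1* and *UNC5B*, beside 3.95% of the genes that passed its filter, and 0 lower, beside 1.49%. *FLRT2*, *UNC5C*, *UNC5D* and *ADGRL3* did not pass that filter and were not tested by edgeR. The groups did not overlap for 1 of the 8, *UNC5B*, beside 6.41% of all genes that were higher in every *SOX2* KO embryo. The median log2 difference of the 8 genes was 1.44, and 7 of the 8 were positive, whereas the median of all genes was 0.25, with 12612 of 20056 positive. The shift of all genes depended on the scaling, from -0.02 with quantile normalization to 0.34 with the median log ratio of abundant genes, and the share of calls that were higher was 88.5% in the main test and 58.5% with quantile normalization.

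The level of a gene bears on how it is read against this background. Genes with few reads were called higher more often, 13.6% where the mean was under 20 against 2.29% where it was 100 or more. 6 of the 8 genes, *FLRT1* among them, had a mean under 20, and *UNC5B* was in the class of 100 or more. In that class 3.78% of genes were higher in *SOX2* KO without overlap.

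**Figure D3:**
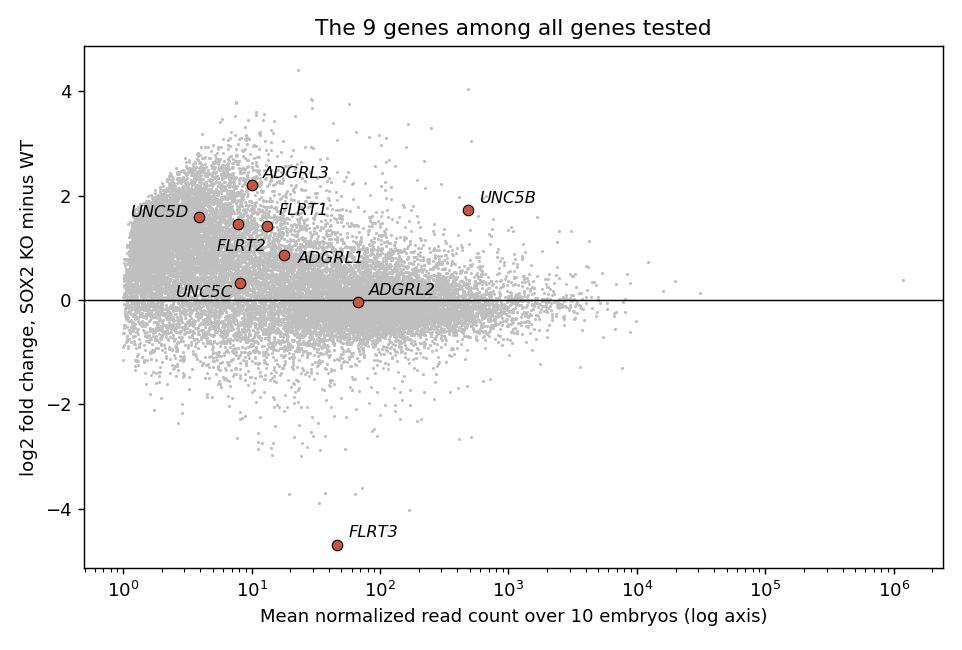
Log2 difference between SOX2 KO and WT embryos (vertical axis) against the mean normalized read count over the 10 embryos (horizontal log axis) for all 20056 genes tested in grey, with the 9 genes in red. UNC5B lies at 1.72 among genes with means of 100 or more, FLRT3 lies at -4.69 as the lowest point, and 6 of the 9 genes lie at means under 20, where grey points spread widely above 0.

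**Figure D4:**
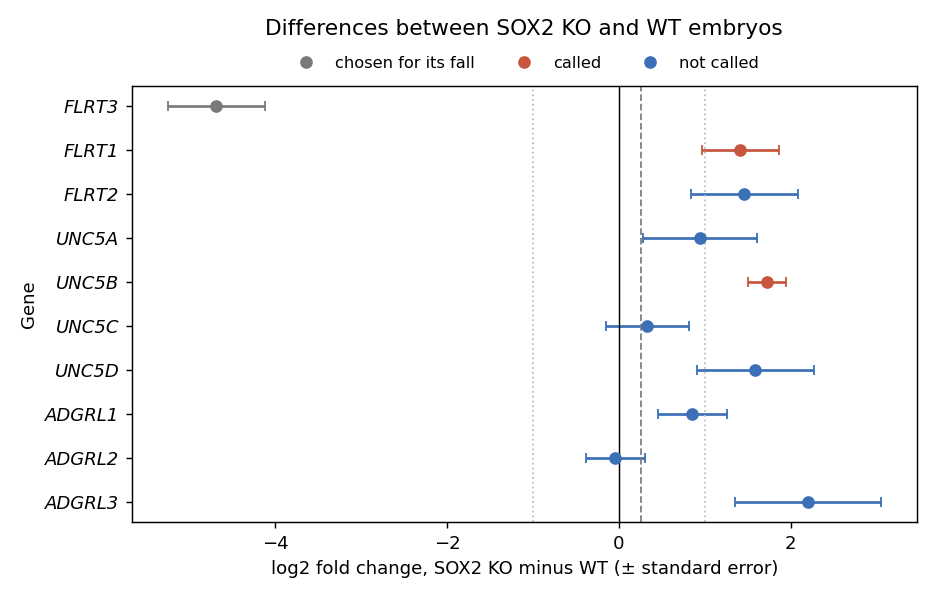
Log2 difference between SOX2 KO and WT embryos with its standard error for the 9 genes and UNC5A. Grey marks FLRT3, which was chosen for its fall, red marks genes called by limma, and blue marks genes not called. The solid line is no difference, the dashed line is the median of all genes (0.25) and dotted lines mark a fold change of 2 in either direction. FLRT1 and UNC5B are red.

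The other ligands and receptors of these families, and related adhesion and guidance genes, were taken as lists. Of 141 listed genes, 128 were in the table, of which 88 had a mean under 20. Of the 128, limma called 25 higher and 1 lower, beside 8.93% and 1.16% of all genes. The median log2 difference was 0.89. Without ko1 and ko5 it called 2 higher, *ELFN2* and *PLXNA1*, and 1 lower, *AMIGO2*. With the share of reads on *RN18S1* in each embryo as a covariate it called 0 in either direction. Leaving out both embryos also left 3 *SOX2* KO embryos in the fit, and without 1 embryo the count of calls higher was 13 (ko1 or ko5), 15 (nc1), 16 (nc2 or nc4) and 40 (ko4) among others. The part of the higher low counts of ko1 and ko5 was not tested.

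Among the 8 ligands and relatives of latrophilins, 7 with a mean under 20, 1 was called higher. Over all genes 8.93% were called higher, and 13.6% of those with a mean under 20. The called gene was *NRXN2*, a neurexin of presynaptic membranes, from 0.553 ± 0.870 to 11.3 ± 8.97 with a log2 difference of 2.53 (limma adjusted p = 0.0267). Its call was made in 4 of the 10 fits that leave out 1 embryo. The teneurin with the highest mean, *TENM4*, had 16.8 ± 7.23 in WT and 26.0 ± 13.1 in *SOX2* KO embryos, with a log2 difference of 0.58 (limma adjusted p = 0.323). The other teneurins were not called either. All 8 differences were positive.

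Of 10 netrins and their other receptors, 2 were called higher, beside 8.93% of all genes tested. Of the 10, 8 had a mean under 20, the class in which 13.6% of genes were called higher. *NTNG2*, a membrane-anchored relative of netrins, had 0.590 to 1.99 in WT embryos against 3.29 to 21.2 in *SOX2* KO embryos without overlap (log2 difference 2.34, limma adjusted p = 0.00951). *DSCAM*, an immunoglobulin-family adhesion molecule that also binds netrin, had 1.31 ± 1.54 and 11.1 ± 7.62 (log2 difference 2.27, limma adjusted p = 0.0321), and its call was made in 4 of the 10 fits without 1 embryo. The secreted ligand of UNC5 receptors, *NTN1*, had 8.56 ± 2.85 in WT and 17.3 ± 6.99 in *SOX2* KO embryos (log2 difference 0.89, limma adjusted p = 0.144). The netrin and RGM receptor *NEO1* had 51.8 ± 20.2 and 55.0 ± 19.0 (log2 difference 0.08, 95% confidence interval -0.55 to 0.71).

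**Figure D5:**
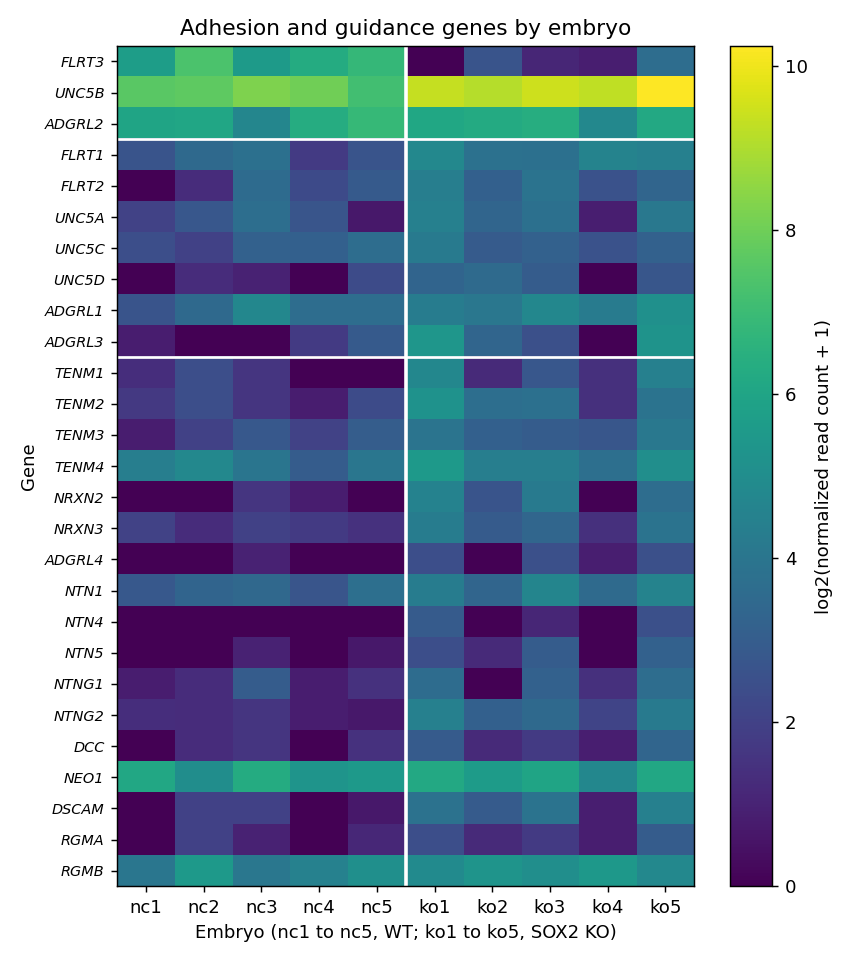
Log2(normalized read count + 1) of the FLRT, UNC5 and latrophilin genes, of latrophilin ligands and of the netrin group in each embryo. Rows are genes, columns are embryos (nc1 to nc5 WT, ko1 to ko5 SOX2 KO), white lines separate gene blocks and groups, and brighter colour is a higher level. FLRT3 darkens and UNC5B brightens in the SOX2 KO columns, and most other rows are brightest in ko1 or ko5.

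FLRT proteins also act with other proteins in the membrane of their own cell, among them FGF receptors, ROBO receptors and the small GTPase RND1. Of 10 such genes, 1 was called higher and 0 lower, beside 8.93% and 1.16% of all genes tested. The called gene was *ROBO2*, from 0.607 ± 0.832 to 5.94 ± 4.29 (log2 difference 1.96, limma adjusted p = 0.0372), and its call was made in 4 of the 10 fits without 1 embryo. *ROBO1*, the receptor that FLRT3 acts with in thalamic axons, was singled out after its values were seen and had 10.7 ± 5.29 and 3.57 ± 2.71, with a log2 difference of -1.45 (limma adjusted p = 0.0649). *FGFR4* had 170 ± 18.9 in WT and 111 ± 21.6 in *SOX2* KO embryos without overlap (limma adjusted p = 0.0250), and its log2 difference of -0.62 did not reach the fold threshold. *CDH1*, the E-cadherin gene, had 626 ± 195 and 660 ± 139 (log2 difference 0.11, 95% confidence interval -0.31 to 0.54).

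Downstream of the receptors, limma called 0 of 5 genes of UNC5 death signalling and 0 of 6 latrophilin G protein genes. Over all genes tested it called 8.93% higher and 1.16% lower. At an unadjusted p below 0.05, 1 of the first list was higher and 1 lower, and 0 of the second list were, beside 24% and 8.37% of all genes. DESeq2 and edgeR called none of either list. *DAPK1*, the kinase that UNC5 receptors engage in cell death, had 268 ± 58.8 in WT and 380 ± 65.7 in *SOX2* KO embryos (log2 difference 0.51, limma adjusted p = 0.0553). *GNAI3*, the inhibitory G protein subunit with the highest mean of its list, had 274 ± 67.1 and 241 ± 25.0 (log2 difference -0.16, limma adjusted p = 0.557).

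Of 30 other leucine-rich repeat adhesion genes tested, 6 were called higher and 1 lower, beside 8.93% and 1.16% of all genes. Of the 30, 25 had a mean under 20, the class in which 13.6% of genes were called higher. *AMIGO2*, a leucine-rich repeat adhesion protein first described in neurons, fell from 164 ± 41.4 to 65.8 ± 18.8 without overlap, with a log2 difference of -1.32 (limma adjusted p = 0.0013), and it was called in all 10 fits that leave out 1 embryo. No other gene of these lists was called lower. *ELFN2*, a postsynaptic leucine-rich repeat protein, rose from 0.965 ± 0.779 to 17.2 ± 10.5 (log2 difference 3.07, limma adjusted p = 0.00212), with 5 reads in all WT embryos. The other 5 genes called higher were *LRRC4C* and *LRRN4*, called in all 10 fits without 1 embryo, *LINGO4* and *ELFN1*, called in 4, and *LRTM2*, called in 3. *LRRC4C* and *LRRN4* had 0 reads in WT and 24 and 16 reads in all *SOX2* KO embryos. None of the 5 was called without ko1 and ko5. The gene of the list with the highest mean, *LRIG2*, had 106 ± 12.6 in WT and 126 ± 29.9 in *SOX2* KO embryos (log2 difference 0.22, limma adjusted p = 0.443).

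The genes whose levels ran most like those of *FLRT3* over the 10 embryos, among 11333 genes whose mean was 10 or more, were *HSP90AB1*, *GAS2L3*, *TOP2A*, *LOC511229* and *HELB*. Their Pearson correlations of log2(normalized read count + 1) with *FLRT3* were 0.97, 0.96, 0.96, 0.95 and 0.95. All 5 were lower in *SOX2* KO embryos without overlap, so the correlation holds the difference between the groups, and the points share libraries and depth. With the group means removed, the correlations were 0.85, 0.81, 0.75, 0.67 and 0.66. These values are a description only, because the 5 genes were picked as the highest of 11333 on the same embryos and the *SOX2* KO values of *FLRT3* rest on 0 to 10 reads. *HSP90AB1*, a cytosolic chaperone, differed little in size, from 7295 ± 463 to 5919 ± 394, and *TOP2A*, the topoisomerase of dividing cells, from 873 ± 98.0 to 546 ± 78.6. *LOC511229* came closest to the fall of *FLRT3*, from 43.8 ± 3.96 to 4.97 ± 2.1. *UNC5B* had a correlation of -0.79 with *FLRT3*, and 0.21 with the group means removed.

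Of the marker lists of blastocyst cell types, that of the epiblast was lower as a set in *SOX2* KO embryos. At this stage the study found OCT4 and NANOG protein in the trophectoderm and in the inner cell mass, the source of the epiblast. These markers are therefore not of the epiblast alone. Of 17 tested, limma called 6 lower and 0 higher, beside 1.16% and 8.93% of all genes tested, and 3 of the 17 differences were positive. The log2 differences of *UTF1*, *ESRRB*, *DNMT3B* and *TFCP2L1* were small, at -0.16, 0.06, -0.07 and -0.15. The summed level of the 17 was 4235 to 5272 in WT embryos against 2816 to 3561 in *SOX2* KO embryos. Their mean log2 level, in which no single gene dominates, was 6.78 ± 0.18 in WT and 5.96 ± 0.18 in *SOX2* KO embryos. The correlation of *NANOG*, a pluripotency factor, with *FLRT3* was 0.70 over the 10 embryos and -0.27 with the group means removed. For the primitive endoderm markers *HNF4A*, *PDGFRA* and *GATA6* it was 0.84, 0.73 and 0.31. With the group means removed, these were 0.08, -0.20 and -0.06. Of 12 primitive endoderm markers, 3 were called lower, among them *HNF4A* and *PDGFRA*, and 1 higher, *APOA1*, beside 1.16% and 8.93% of all genes. The mean log2 level of the 12 was 5.75 ± 0.28 in WT and 5.80 ± 0.45 in *SOX2* KO embryos, and 6 of the 12 differences were positive. Their summed level was 1861 to 2399 in WT embryos against 2343 to 2747 in *SOX2* KO embryos, and without *APOA1* it was 1610 to 2164 against 1739 to 1919.

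Of 14 trophectoderm markers, 2 were called higher and 1 lower, beside 8.93% and 1.16% of all genes tested. The mean log2 level of the 14 was 8.19 ± 0.26 in WT and 8.53 ± 0.25 in *SOX2* KO embryos. The summed levels of 27464 to 40601 and 38212 to 51477 overlapped. Without the keratins *KRT8* and *KRT18*, which gave 82.1% of the WT sum, the sums were 4089 to 6807 and 6319 to 7503. The markers of cumulus cells, which surround the oocyte, summed to 8.90 to 62.2 in WT embryos against 30.4 to 71.3 in *SOX2* KO embryos. Of these 7 markers, limma called 0, and 1 was higher at an unadjusted p below 0.05, beside 24% of all genes. The 3 sperm markers summed to 1.48 to 36.6 in WT embryos against 2.31 to 13.95 in *SOX2* KO embryos. The part of these markers in the levels of *FLRT3* and *UNC5B* was not tested.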

How the data were processed

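Single bovine early blastocysts (5 WT, 5 *SOX2* KO) were sequenced with Smart-seq2. The authors used Trimmomatic for trimming, HISAT2 for mapping to ARS-UCD1.2 and featureCounts for counting by gene, and then scaled the counts by DESeq2 size factors. The deposited values are therefore a normalized signal per gene. The annotation, the strand setting and the treatment of reads mapped to several places are not given in the sources used here, so reads of paralogs and overlapping genes could be shared. All 201120 values (100%) were whole multiples, within 0.001 reads, of 1 step per embryo, from which reads were recovered. Reads carry no molecular identifiers, so intervals cover counting error only. No gene in the table had fewer than 11 reads over the 10 embryos, and genes below that are not analysed here.

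limma 3.58.1 (lmFit, eBayes with trend) was run in R 4.3.3 on log2(value + 1) over the 20056 genes whose mean was 1 or more, with Benjamini-Hochberg adjustment over all of them. Such fold changes understate the change of genes with few reads. DESeq2 1.42.0 and the edgeR 4.0.16 quasi-likelihood test were alternatives on the recovered reads, since the deposited values are not counts. The fits were tested on simulated counts with an assumed spread, in which 200 genes with a mean of at least 10 changed 4-fold. limma recovered 167 of them with 14 false calls, DESeq2 175 with 30 and edgeR 171 with 12. No changed gene had fewer reads, and no shift of low counts like that in ko1 and ko5 was simulated. The simulation therefore does not show how such cases are handled. Columns were assigned by name, and the ko columns carry no replicate number of their labels. Nothing says whether embryos share a collection or parents, so p-values measure the spread between these embryos.

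The genes and lists were chosen with earlier results of these data known. Named genes were all members, called genes of the lists and up to 3 genes of highest mean in each, *RN18S1* and *SOX2*, the 5 genes with the highest Pearson correlation with *FLRT3*, and the called gene with the next largest fall. *ROBO1* and the cell type markers named were singled out after their values were seen. Leaving out ko1 and ko5 was added after the values were seen. No coordinates and no sequences are printed: the only gene table used here is of another assembly, ARS-UCD2.0.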

Additional observations from a re-analysis of the deposited data

Results flagged for a closer look

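In 3 of the 20 groups of 5 embryos examined for these genes and *UNC5A*, 1 embryo stood apart from the other 4 by Dixon's test, where chance gives about 1. *UNC5B* was 1208 in ko5, against 541 to 700 in the other *SOX2* KO embryos. *UNC5C* was 17.8 in ko1, against 4.93 to 8.14. *ADGRL2* was 26.3 in ko4, against 67.9 to 81.4.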

How the results depend on the processing

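The difference of *FLRT3* was -3.44 with a pseudocount of 5 and lay between -5.18 and -4.27 when 1 embryo was left out. Of the other 8 genes, 1 was called higher, *UNC5B*, with a pseudocount of 0.1, a mean of at least 10, equal totals, quantile normalization, *RN18S1* as a covariate or ko1 and ko5 left out, and 6 with quality weights. The count was 1 to 3 when 1 embryo was left out, 3 without nc3 or ko4, and 0 were called lower in every setting tried. Fewer genes were tested with a mean of at least 10 (11334) and by edgeR (11176). Genes below those filters, among them *FLRT2*, *UNC5C*, *UNC5D*, *NRXN2*, *NTNG2* and *SLIT1*, were not tested there and could not be called. Of the wider lists, 7 genes were called higher with a mean of at least 10, 13 with quantile normalization, 41 with quality weights, 4 with edgeR, 0 with *RN18S1* as a covariate and 2 without ko1 and ko5. Without 1 embryo the count was 13 to 40: 13 without ko1 or ko5, 15 without nc1, 16 without nc2 or nc4 and 40 without ko4. Genes called lower numbered 3 with quantile normalization or quality weights, 2 without a fold threshold, 0 with *RN18S1* as a covariate, and 1 to 2 without 1 embryo, 2 without ko4. Signs turned for *UNC5C* (-0.25 with quantile normalization), *UNC5A* (-0.32 with the covariate) and *ADGRL2*, which was 0.062 with the median log ratio, 0.0076 with quantile normalization, 0.0028 with quality weights, 0.12 with the covariate, and -0.36 to 0.25 without 1 embryo. The causes were not tested. Calls over all genes were 1792 higher and 232 lower in the main test, 629 and 447 with quantile normalization, 441 and 167 with edgeR, 137 and 83 with the covariate, and 221 and 130 without ko1 and ko5. Genes with few reads were limited by depth. No paired analysis was possible because the ko columns carry no replicate numbers of their labels.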

Other observations

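Further guidance families were measured in the same embryos, most of their genes with few reads. In all 10 embryos together, 8.93% of all genes were called higher by limma, and 13.6% of those with a mean under 20. Of 7 slits and roundabout receptors, 6 with a mean under 20, 3 were called higher, the secreted ligand *SLIT1* and the receptors *ROBO2* and *ROBO3*. The calls of *SLIT1* (log2 difference 2.40) and *ROBO3* (2.34) were made in all 10 fits that leave out 1 embryo and that of *ROBO2* in 4, and none of the 3 was called without ko1 and ko5. *ROBO4*, with the highest mean of this list, had 27.9 ± 24 in WT and 15.3 ± 4.10 in *SOX2* KO embryos (limma adjusted p = 0.332).

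Of 21 ephrins and Eph receptors, contact-dependent guidance genes of which 18 had a mean under 20, 6 were called higher. *EPHA8* and *EPHB6* were called in all 10 fits without 1 embryo, *EPHA5* and *EPHB1* in 4, *EPHB2* in 3 and *EFNA2* in 2, and none of the 6 was called without ko1 and ko5. *EFNB2*, with the highest mean of this list, had 229 ± 41.5 in WT and 232 ± 34.2 in *SOX2* KO embryos (limma adjusted p = 0.930).

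Of 30 semaphorins, plexins and neuropilins, 20 with a mean under 20, 7 were called higher: *SEMA3B*, *SEMA6B*, *PLXNA1*, *PLXNA4*, *PLXNB1*, *PLXNB3* and *PLXND1*. Of the 7, *PLXNA1* alone was called without ko1 and ko5. *PLXNA1*, a receptor subunit for secreted semaphorins, lay at 7.08 to 18.9 in WT embryos and, without overlap, at 34.5 to 62.4 in *SOX2* KO embryos. Its log2 difference was 1.63 (limma adjusted p = 0.00344, and 0.0404 without ko1 and ko5). *PLXNA4* had the largest difference of these 3 families, 3.25 on the log2 scale, and without ko1 and ko5 it was 2.48 with a limma adjusted p of 0.0548. *PLXNB2*, with the highest mean of this list, had 198 ± 53.6 in WT and 210 ± 32.7 in *SOX2* KO embryos (limma adjusted p = 0.699).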
